A study of Mus musculus with 29 samples.

Results

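The 10 genes described here encode the mouse MHC class I antigen presentation pathway. They are H2-K1, H2-D1, B2m, Tap1, Tap2, Tapbp, Psmb8, Psmb9, Psmb10 and Nlrc5, chosen by symbol among the 54532 genes of the count table, and all 10 passed the filter on low counts (18616 genes). They were compared in the colon of 29 mice, in 6 models of colitis and 3 groups of untreated controls.

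MHC class I molecules show peptides from inside the cell to CD8+ T cells. The heavy chains, here H2-K1 and H2-D1, pair with beta-2-microglobulin (B2m), are loaded with peptides that the transporter Tap1/Tap2 carries into the endoplasmic reticulum, and are held at the transporter by tapasin (Tapbp). Psmb8, Psmb9 and Psmb10 are the catalytic subunits that replace Psmb5, Psmb6 and Psmb7 in the immunoproteasome, a form of the protease that makes the peptides, and Nlrc5 is the transactivator of class I genes. Interferon gamma is known to induce this set in part through Irf1, in epithelium as well as in leukocytes.

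Each library was made from the colon of 1 mouse. Untreated mice (WT control, n = 3), mice given DSS (n = 3) or DNBS (n = 3) and mice given a blocking antibody named for IL10 (IL10, n = 4) were labelled Balb/C. DSS, which damages the epithelium, was given at 3% in water for 5 days and the mice were culled at day 10. DNBS, a hapten, was given rectally at 3 mg in 50% ethanol, and the IL10 mice received 750 µg of what the protocol calls anti-IL-10R and were kept for up to 4 weeks. Other mice were labelled C57BL/6 Rag1-/-, a genotype that lacks T and B cells. Rag1 control (n = 3) was untreated. The aCD40 mice (n = 3) were given 50 µg of agonistic anti-CD40 and culled after 7 days. The TCT mice (n = 3) received sorted naive CD4+ T cells and were culled after 6 to 8 weeks. Untreated Balb/C Rag2-/- mice (Rag2 control, n = 3), also without T and B cells, were the controls of TRUC mice (Balb/C Tbx21-/- x Rag2-/-, n = 4), which develop colitis untreated. The sources differ on some of these points: the study's methods name Il10-/- mice for the IL10 model and C57BL/6 for the wild-type mice, and the protocol names Rag2-/- recipients for TCT. The methods also give the recipients of TCT an age of 8 to 10 weeks, and no age for the other groups was found in the sources used here.

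Total counts per mouse lay between 10725564 and 14977094. Levels are given as CPM, the usual unit of counts relative to the library's total, which was scaled by TMM. Epithelial markers (6 genes) summed to at least 6569.5 CPM in every mouse. B-cell markers (4 genes) summed to at least 22.6 CPM in every mouse labelled without a Rag deletion and to at most 4.45 CPM in the others. A count over a whole gene does not show a deleted exon, so the targeted genes checked the labels only in part. Tbx21 lay at 2.12 to 4.63 CPM in the libraries labelled TRUC and at 0.0765 to 0.529 CPM in Rag2 control. Rag1 lay at 1.85 to 2.88 CPM in TCT and at most 0.295 CPM elsewhere. Rag2 lay at 0.442 to 8.49 CPM in Rag1 control, aCD40, Rag2 control and TRUC and at most 0.0762 CPM elsewhere. Rag1 control and aCD40 thus had the Rag pattern of Rag2 control and TRUC, and not that of TCT, whose Rag label they share. Their Rag1-/- label is therefore in doubt.

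Of the 10 genes, 7 lie on chromosome 17 (GRCm38), in and beside the H2 complex. Psmb9 (chr17:34181987-34187764, minus strand), Tap1 (chr17:34187553-34197225, plus strand), Psmb8 (chr17:34197721-34201454, plus strand) and Tap2 (chr17:34203527-34216321, plus strand) are neighbours there. Tapbp (chr17:33915899-33929292, plus strand) and H2-K1 (chr17:33996017-34000347, minus strand) lie to one side of them and H2-D1 (chr17:35262730-35267499, plus strand) to the other. B2m is on chromosome 2 (chr2:122147686-122153083, plus strand), and Nlrc5 (chr8:94434356-94527272, plus strand) and Psmb10 (chr8:105935735-105938444, minus strand) are on chromosome 8. These are the bounds of the whole genes in GENCODE M21.

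RefSeq promoter sequences (GRCm38.p6, 250 bases before to 50 after the start) were found for 8 of the 10 genes. Those of H2-K1 (chr17:34000298-34000597, minus strand) and H2-D1 (chr17:35262844-35263143, plus strand) are shown because they hold motifs of factors of this pathway, in capitals. That of Tap1 (chr17:34187306-34187605, plus strand) is shown because the promoter window of Psmb9 (chr17:34187281-34187580, minus strand) overlaps it on the other strand, and it holds neither of these motifs. Of the 3 motifs searched, 2 are given.
H2-K1: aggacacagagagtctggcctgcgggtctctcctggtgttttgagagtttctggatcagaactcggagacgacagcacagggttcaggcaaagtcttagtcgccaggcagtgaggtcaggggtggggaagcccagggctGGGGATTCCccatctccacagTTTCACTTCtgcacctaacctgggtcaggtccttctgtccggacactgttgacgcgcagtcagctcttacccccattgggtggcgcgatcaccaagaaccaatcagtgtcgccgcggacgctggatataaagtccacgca
H2-D1: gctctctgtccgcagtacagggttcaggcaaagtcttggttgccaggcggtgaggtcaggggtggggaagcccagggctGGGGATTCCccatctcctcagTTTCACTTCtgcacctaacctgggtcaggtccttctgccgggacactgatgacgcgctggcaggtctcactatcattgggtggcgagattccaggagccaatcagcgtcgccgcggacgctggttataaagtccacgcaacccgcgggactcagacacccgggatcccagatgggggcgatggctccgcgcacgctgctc
Tap1: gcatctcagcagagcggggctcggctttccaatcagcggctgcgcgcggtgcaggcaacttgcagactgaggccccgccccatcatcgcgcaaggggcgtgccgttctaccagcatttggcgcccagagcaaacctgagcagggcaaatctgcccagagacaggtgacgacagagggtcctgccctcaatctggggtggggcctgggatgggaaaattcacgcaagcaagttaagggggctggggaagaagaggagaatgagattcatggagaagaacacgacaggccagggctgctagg
In both heavy chain promoters the first capitals are GGGGATTCC, a match to GGGNNTTCC, a short form of an NF-kB site. The next are TTTCACTTC, a match on the other strand to GAANNGAAA, a short form of an interferon response element. They begin at -111 and -90 from the start of H2-K1 and at -171 and -150 from that of H2-D1, and with the windows shifted by 60 bases, 176 of 240 aligned bases are identical (73.3%). Searched on both strands of 32851 promoters, GGGNNTTCC was found in 5.82% and GAANNGAAA in 7.52%. The windows of B2m, Tapbp, Psmb8, Psmb9 and Psmb10 held neither motif in these exact letters. Longer forms of the same sites were not searched. The B2m window holds gaaactgaaa and gggaaagtccc, which these letters cannot match, so a missing match does not show a missing site. All sequences are those of the reference, which is of the C57BL/6 strain.

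The counts of H2 genes did not follow the strain labels. H2-Ea-ps is transcribed in mice of the d haplotype of H2, such as BALB/c, and not in those of the b haplotype, such as C57BL/6. It had at most 1 count in each of the 16 libraries labelled WT control, DSS, DNBS, IL10 and TCT, and between 784 and 3956 counts in each of the 13 labelled Rag1 control, aCD40, Rag2 control and TRUC. This goes against the strain in the labels of WT control, DSS, DNBS and IL10 and in those of Rag1 control and aCD40. The labels are used below as the names of groups.

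H2-K1 was divided the same way. It was counted at 995, 1027 and 1146 CPM in the libraries labelled WT control, at 88.8, 74.9 and 87.4 CPM in Rag1 control and at 69.2, 69.7 and 72.2 CPM in Rag2 control. The untreated WT controls thus lay far above both Rag controls, with no overlap (log2 fold change against Rag2 control 3.91 ± 0.27, adjusted p = 1.04e-10, ± SE, from the quasi-likelihood test of edgeR with adjustment by Benjamini-Hochberg, as for every single gene below). H2-D1 was closer, at 634, 661 and 758 CPM and 420.0, 482 and 435 CPM (0.62 ± 0.24, adjusted p = 0.13). Within a library, the number of H2-K1 counts for each H2-D1 count was 1.51 to 1.57 in WT control, 0.845 to 1.26 in DSS, DNBS, IL10 and TCT, and 0.145 to 0.217 in the other groups. Reads of another haplotype may fail to align to the reference, and their part in this difference was not tested. Of the 50-base windows of H2-K1 exons 9.63% occur in another gene, and of those of H2-D1 12.8%, most often in H2-Q10 and H2-Q1.

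**Figure D1:**
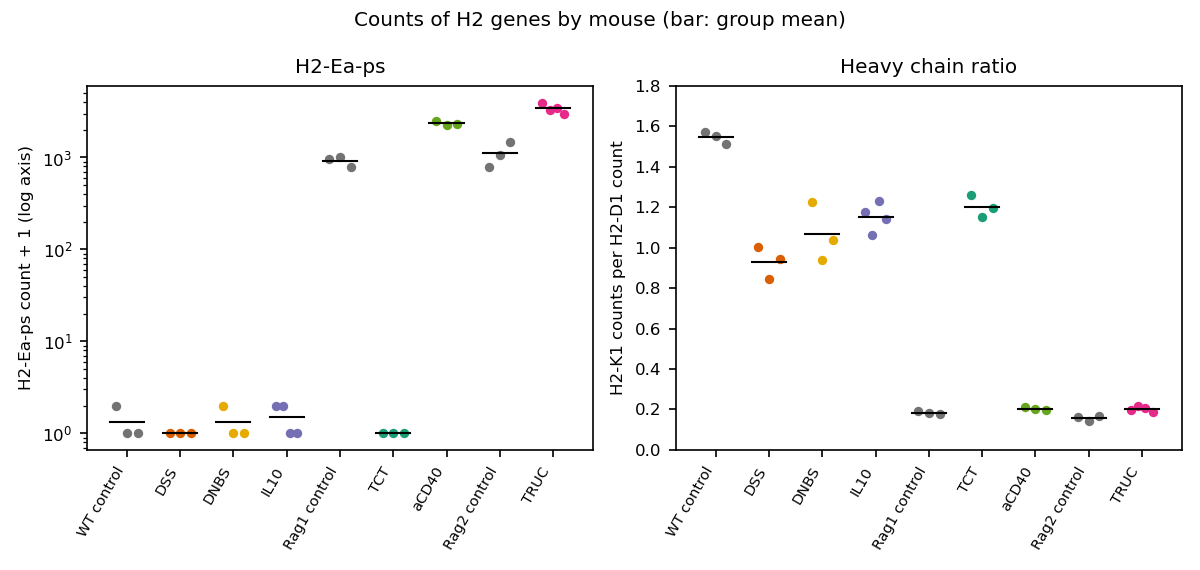
H2-Ea-ps counts and the number of H2-K1 counts for each H2-D1 count in each of 29 mice, by group. Libraries with at most 1 H2-Ea-ps count had heavy chain ratios of 0.845 to 1.57, and those with at least 784 counts had ratios of 0.145 to 0.217.

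Per length of the principal transcript, the heavy chains and B2m led in WT control, and Nlrc5 was lowest in all 3 untreated groups. In WT control the level was 652 ± 49.3 CPM per kb (SD, n = 3) for H2-K1, 370.2 ± 16.9 for B2m and 325 ± 31.0 for H2-D1. Psmb10 was at 93.0 ± 3.98 CPM per kb, Tapbp at 58.9 ± 5.95, Psmb9 at 19.6 ± 2.62, Psmb8 at 12.1 ± 1.82 and Tap1 at 9.49 ± 1.94. Tap2 followed at 5.66 ± 0.798 CPM per kb and Nlrc5 at 0.458 ± 0.150. Of the neighbours in this order, B2m and H2-D1, and Psmb8 and Tap1, had overlapping ranges of mean ± SD. In Rag1 control and Rag2 control B2m led, at 430.0 ± 46.2 and 397 ± 28.5 CPM per kb, and H2-K1, at 51.7 ± 4.72 and 43.5 ± 0.982, lay below H2-D1, Psmb10 and Tapbp. In IL10 mice B2m reached 2274 ± 240.4 CPM per kb (n = 4), H2-K1 2262 ± 174, H2-D1 1519 ± 204 and Nlrc5 9.46 ± 0.977.

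The question of the main comparisons was in which forms of colitis the pathway changes relative to the control group of the model. In TRUC 9 of the 10 genes rose, where 22.4% of all genes tested were higher and 23.4% lower. In DSS 9 rose (17.7% higher and 16.3% lower over all genes) and in DNBS 3 (3.95% and 2.21%). All 10 rose in IL10 (27.2% and 26.1%), in TCT (16.1% and 14%) and in aCD40 (10.9% and 10.7%). For TCT, whose libraries differed from Rag1 control in H2-Ea-ps, the transfer and a difference of background cannot be told apart. None of the 10 fell in any model. In whole colon, more cells of a type and more RNA per cell cannot be told apart.

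Every mouse of the model lay above every control for 9 of the 10 genes in TRUC (28.8% of all genes), 9 in DSS (25.9%), 3 in DNBS (15.6%) and all 10 in IL10 (27.6%), TCT (21.4%) and aCD40 (19.2%). The median log2 fold change of the 10 was highest in IL10 (2.42) and TCT (2.37), lower in DSS (1.54), aCD40 (1.51) and TRUC (1.43), and lowest in DNBS (0.76). The TCT value also holds the difference in H2 pattern from Rag1 control. Without H2-K1 and H2-D1 the median was 3.17 in IL10, 2.18 in TCT, 1.94 in aCD40, 1.94 in DSS, 1.89 in TRUC and 1.15 in DNBS. The median over all genes tested lay between -0.03 and 0.02. DSS, DNBS and IL10 share the WT controls, and TCT and aCD40 share the Rag1 controls.

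**Figure D2:**
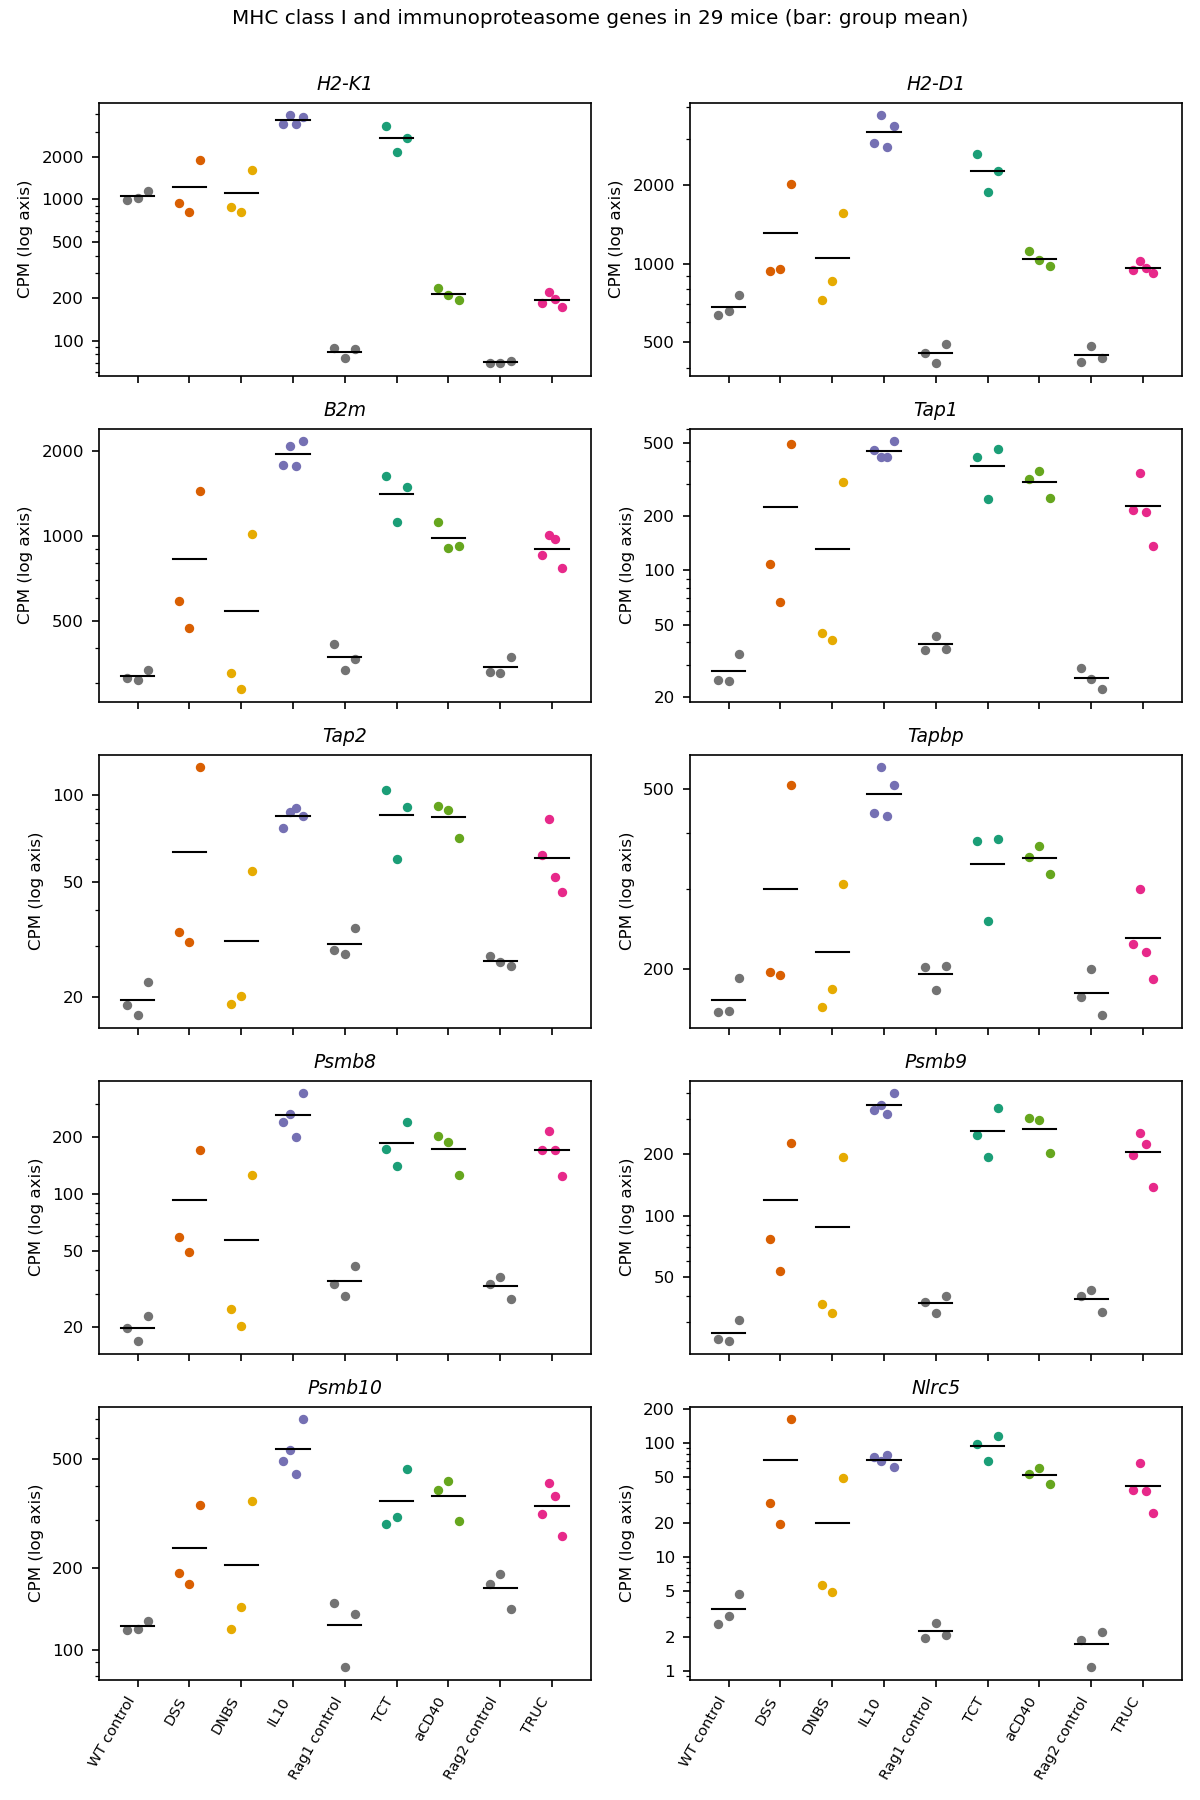
CPM of each of the 10 genes in each of 29 mice, by group. IL10, TCT and aCD40 mice lay above their controls for all 10 genes and TRUC mice for 9, while DSS mouse 8 and DNBS mouse 16 lay above the other mice of their groups.

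**Figure D3:**
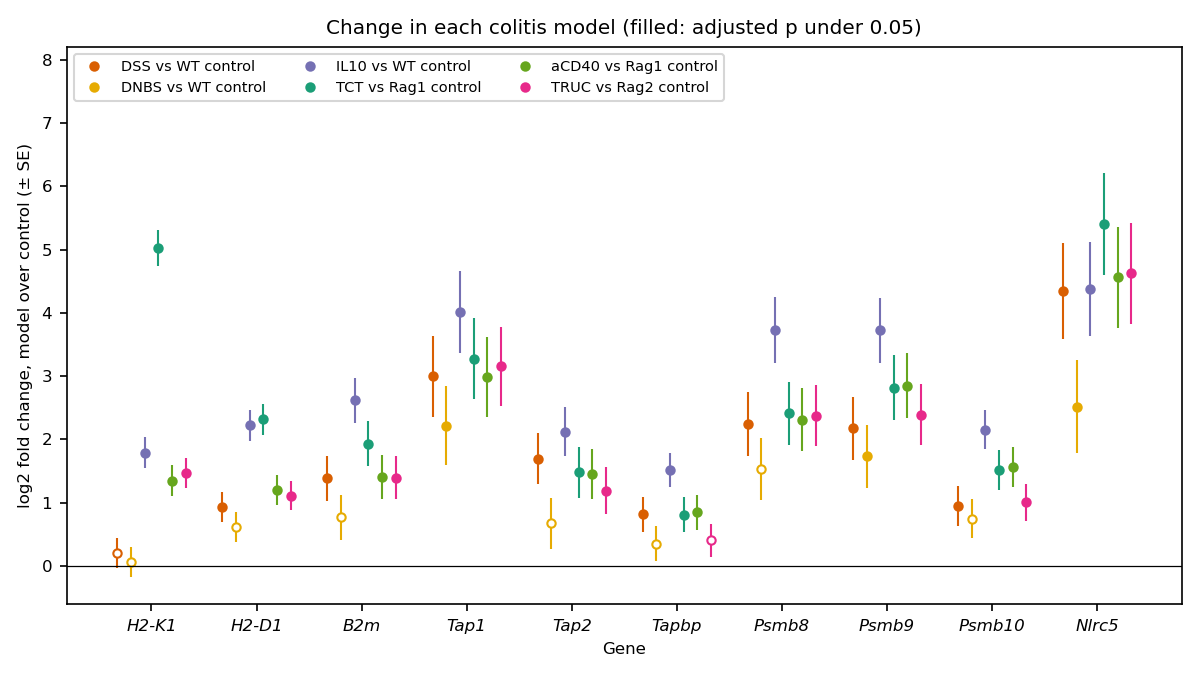
Log2 fold change of each gene in each model against its own control, with its SE. Nlrc5 had the largest value in every model, from 2.52 in DNBS to 5.40 in TCT. All values of TCT, such as 5.03 for H2-K1, compare libraries that differ in H2-Ea-ps.

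Nlrc5, the transactivator, had the largest fold change of the 10 genes in all 6 models. It was counted at 1.86, 1.07 and 2.19 CPM in Rag2 control and at 39.0, 67.3, 38.4 and 24.5 CPM in TRUC (4.63 ± 0.80, adjusted p = 8.25e-05). In Rag1 control it was at 1.95, 2.65 and 2.07 CPM, in aCD40 at 53.9, 60.4 and 44.1 CPM (4.56 ± 0.79, adjusted p = 0.000368) and in TCT at 97.6, 70.2 and 116 CPM (5.40 ± 0.81, adjusted p = 1.86e-05). In none of these did the groups overlap. WT controls had 2.59, 3.06 and 4.76 CPM and IL10 mice 75.6, 69.8, 79.0 and 62.1 CPM (4.37 ± 0.75, adjusted p = 5.03e-05), again without overlap. No 50-base window of Nlrc5 occurs in another gene.

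In TRUC, aCD40 and IL10, whose libraries had the same H2-Ea-ps pattern as their controls, both heavy chains rose. H2-K1 was counted at 185, 223, 198 and 174 CPM in TRUC (1.47 ± 0.24, adjusted p = 4.27e-05), at 237, 209 and 194 CPM in aCD40 (1.35 ± 0.25, adjusted p = 0.000578) and at 3406, 3958, 3438 and 3846 CPM in IL10 (1.79 ± 0.24, adjusted p = 3.28e-06). All of these mice lay above all of their controls. H2-D1 was at 944, 1028, 961 and 918 CPM in TRUC (1.11 ± 0.23, adjusted p = 0.000488), at 1121, 1031 and 982 CPM in aCD40 against 457, 415 and 491 CPM in Rag1 control (1.20 ± 0.24, adjusted p = 0.00131), and at 2897, 3717, 2794 and 3363 CPM in IL10 (2.22 ± 0.24, adjusted p = 3.64e-07). These groups did not overlap either. In DNBS, which also shares the pattern of its controls, neither H2-K1 (0.07 ± 0.24, adjusted p = 0.896) nor H2-D1 (0.62 ± 0.24, adjusted p = 0.115) was called, and in DSS H2-D1 was called and H2-K1 was not.

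For TCT the heavy chains depended on the control. H2-K1 was counted at 3319, 2167 and 2719.6 CPM, higher than in Rag1 control (5.03 ± 0.29, adjusted p = 1.91e-12) and, by less, than in WT control (1.37 ± 0.25, adjusted p = 0.00027), whose libraries lack H2-Ea-ps counts too. H2-D1 was at 2627, 1880.1 and 2276 CPM, with log2 fold changes of 2.32 ± 0.25 and 1.73 ± 0.25. Against Rag1 control, the effect of T-cell transfer and the H2 pattern cannot be told apart for H2 genes and their neighbours on chromosome 17. These groups also differed in Rag1 and Rag2 counts. For B2m, Psmb10 and Nlrc5, the transfer cannot be told apart from a difference of background either. Against WT control, which differs from TCT in lymphocytes, all 10 genes were higher too (16.9% of all genes). With Rag2 control in place of Rag1 control, all 10 were higher in aCD40 (12.4%).

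B2m, which pairs with all class I heavy chains and lies outside the H2 complex, lay at 307 to 412 CPM in the 9 controls. It was at 855, 1004, 974 and 772 CPM in TRUC (1.40 ± 0.34, adjusted p = 0.00181), 1119.9, 907 and 918 CPM in aCD40 (1.41 ± 0.35, adjusted p = 0.00667) and 1638, 1117 and 1488 CPM in TCT (1.94 ± 0.36, adjusted p = 0.00022). Its largest fold change was in IL10, at 1787, 2088, 1772 and 2176 CPM (2.62 ± 0.36, adjusted p = 4.19e-06). Every mouse of these 4 models was above all 9 controls.

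Of the peptide transporter, Tap1 had larger fold changes than Tap2 in every model, though the difference between the genes was not tested. Tap1 was at 28.8, 25.3 and 22.1 CPM in Rag2 control and 215, 343, 209 and 136 CPM in TRUC (3.15 ± 0.62, adjusted p = 0.000319), and at 24.8, 24.6 and 34.6 CPM in WT control and 458, 421, 421 and 516 CPM in IL10 (4.02 ± 0.65, adjusted p = 2.75e-05). In Rag1 control it was at 36.4, 43.6 and 36.9 CPM, in aCD40 at 319, 354 and 249.9 CPM (2.98 ± 0.63, adjusted p = 0.002) and in TCT at 419, 247 and 467 CPM (3.28 ± 0.64, adjusted p = 0.000378). These groups did not overlap. Tap2 rose in the same 4 models, in TRUC (1.19 ± 0.38, adjusted p = 0.0127), IL10 (2.12 ± 0.39, adjusted p = 0.000115), TCT (1.48 ± 0.40, adjusted p = 0.00628) and aCD40 (1.46 ± 0.40, adjusted p = 0.0113). Without Rag1 control mouse 3 it was not called in aCD40 (adjusted p = 0.0505). Of the exon bases of Tap2 18.5% lie in exons of other gene models, and the kit did not keep the strand, so reads there cannot be assigned to one gene.

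Tapbp, which bridges the empty heavy chain and the transporter, had the smallest fold change of the 10 in TRUC, IL10, TCT and aCD40. In IL10 it was at 443, 560.0, 435 and 510.2 CPM, above 159.9, 162 and 191 CPM in WT control (1.51 ± 0.27, adjusted p = 7.61e-05). In TRUC it was at 227, 301, 218 and 189.6 CPM and in Rag2 control at 173, 199.5 and 158 CPM, which overlap (0.40 ± 0.26, adjusted p = 0.208). Its rises in TCT (0.81 ± 0.28, adjusted p = 0.0283) and aCD40 (0.85 ± 0.28, adjusted p = 0.0303) were lost when single mice were left out, with an adjusted p of up to 0.101 without TCT mouse 5 and 0.105 without Rag1 control mouse 3. Exons of Zbtb22 and Gm19412 hold 29.02% of the exon bases of Tapbp.

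Among the immunoproteasome subunits, Psmb8 and Psmb9 had similar fold changes. Psmb8 was at 19.7, 16.8 and 22.7 CPM in WT control and 241, 266, 199.6 and 341 CPM in IL10 (13.3-fold, 3.73 ± 0.52, adjusted p = 4.97e-06), and Psmb9 at 24.8, 24.04 and 30.5 CPM and 330.1, 349, 316 and 401 CPM (13.2-fold, 3.72 ± 0.52, adjusted p = 5.42e-06). In TRUC Psmb8 was at 171, 215, 172 and 124 CPM, against 33.6, 36.8 and 28.2 CPM (5.19-fold), and Psmb9 at 199, 255, 225 and 138 CPM, against 40.4, 43.0 and 33.5 CPM (5.24-fold). The groups did not overlap in either model. In aCD40 the rise was 4.98-fold for Psmb8 and 7.22-fold for Psmb9, and in TCT 5.34-fold and 7.06-fold, with adjusted p of at most 0.00213. Other gene models overlap 14.7% of the exon bases of Psmb8, and Tap1 overlaps 5.79% of those of Psmb9.

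Psmb10 started from a higher level and had smaller fold changes. It was at 118, 119 and 128 CPM in WT control and 494, 539.7, 439.8 and 702 CPM in IL10 (2.16 ± 0.31, adjusted p = 8.49e-06). In TRUC it was at 314, 409, 366 and 261 CPM, against 175, 189 and 141 CPM in Rag2 control (1.00 ± 0.30, adjusted p = 0.00852). It rose by 1.51 ± 0.32 in TCT and 1.57 ± 0.32 in aCD40 on the log2 scale, and in all 4 models the groups did not overlap.

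Each inducible subunit was then set against the subunit it replaces, as a ratio of counts within a library, which does not depend on scaling. For each Psmb5 count there were 0.409, 0.368 and 0.509 Psmb8 counts in WT control and 3.14, 3.10, 2.86 and 3.71 in IL10, a 7.50-fold difference. The ratio was 1.19, 1.27 and 0.901 in Rag2 control and 3.98, 4.46, 3.64 and 2.82 in TRUC (3.32-fold). It was 1.12, 1.26 and 1.64 in Rag1 control, 3.67, 2.67 and 3.67 in TCT (2.496-fold) and 5.47, 5.08 and 4.65 in aCD40 (3.82-fold). None of these 4 models overlapped with its control, nor did DSS, whereas the 0.402 to 2.04 of DNBS overlapped WT control (exact two-sided permutation p = 0.3). All 6 Rag controls lay above the 3 WT controls. Psmb5 itself was higher in WT control, at 44.6 to 48.2 CPM, than in Rag2 control, at 28.2 to 31.3 CPM (0.64 ± 0.15, adjusted p = 0.00525). With WT control in place of Rag1 control, a comparison added after seeing the data, the log2 ratio of TCT was 2.96 higher and not 1.32.

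The ratio of Psmb9 to Psmb6 gave the same order within each model. It was 0.192 to 0.248 in WT control and 1.24 to 1.78 in IL10 (7.06-fold), and 0.239 to 0.297 in Rag2 control and 0.652 to 1.06 in TRUC (3.20-fold). It was 0.248 to 0.324 in Rag1 control, 1.14 to 1.62 in TCT (5.02-fold) and 1.54 to 1.70 in aCD40 (5.83-fold). None of these overlapped. The ratio of Psmb10 to Psmb7 differed 2.24-fold in IL10, 2.01-fold in TCT and 2.03-fold in aCD40. In TRUC it was 2.33, 2.75, 2.29 and 1.94, overlapping the 1.93 to 2.38 of Rag2 control (exact two-sided permutation p = 0.514), and Psmb7 itself rose there (0.90 ± 0.16, adjusted p = 0.0001).

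Of the 18 ratio comparisons, 14 did not overlap, all with higher ratios in the model. Each of these had the smallest p an exact two-sided permutation test allows, 0.1 for 3 against 3 mice and 0.0571 for 4 against 3, and an adjusted p over the 18 of 0.129, so that none could pass 0.05.

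**Figure D4:**
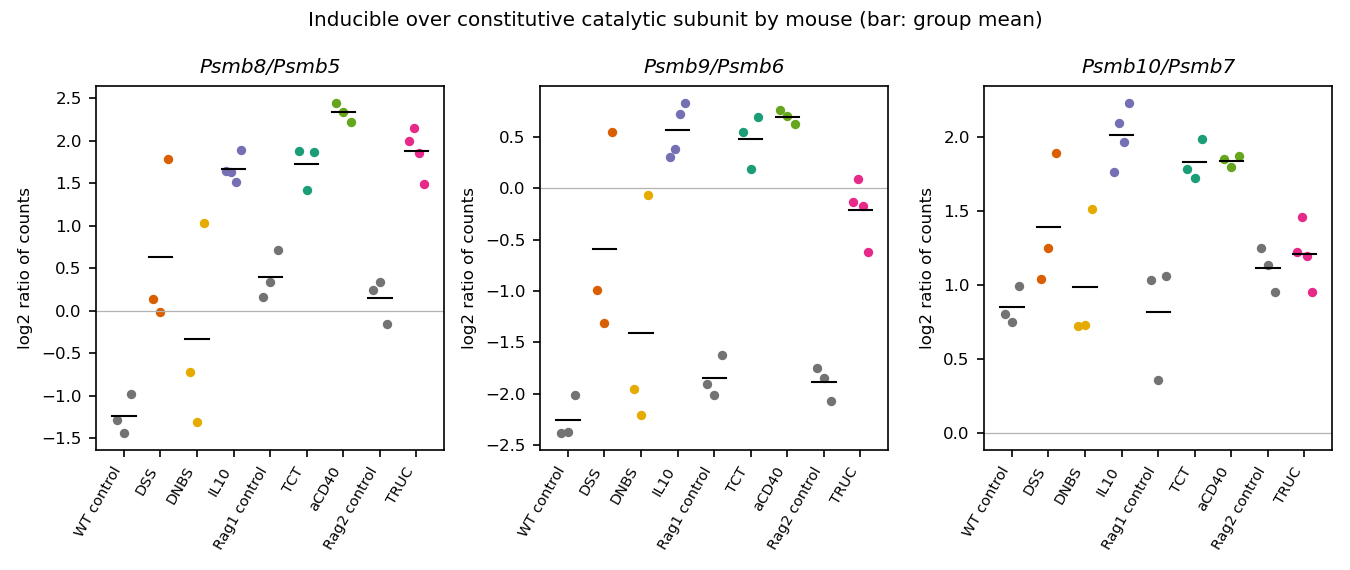
Log2 ratio of counts of each inducible subunit to the subunit it replaces in each of 29 mice, by group. Psmb8/Psmb5 and Psmb9/Psmb6 lay above the controls in all mice of TRUC, DSS, IL10, TCT and aCD40, and Psmb10/Psmb7 overlapped between TRUC and Rag2 control.

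Within the DSS and DNBS groups single mice stood apart. Nlrc5 was at 29.9, 19.4 and 163 CPM in DSS mice 5, 6 and 8, and Tap1 at 109, 67.0 and 495 CPM. Over the mean of the WT controls, the median of the 10 genes was 1.78-fold, 1.53-fold and 5.48-fold in these mice. Mouse 8 was thus the highest by far. It also had the most Ifng, which encodes interferon gamma (0.441, 0.137 and 47.5 CPM), and the most Ptprc, which encodes the leukocyte antigen CD45 (136, 112 and 424 CPM, against 38.3 to 48.7 CPM in WT control). The sum of 4 leukocyte markers was 353 to 1247 CPM in DSS and 117 to 162 CPM in WT control, and the part of these cells in the result was not tested.

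With all 3 DSS mice, 9 genes rose. The largest fold changes were those of Nlrc5 (4.35 ± 0.76, adjusted p = 0.000158), Tap1 (3.00 ± 0.63, adjusted p = 0.000902), Psmb8 (2.24 ± 0.50, adjusted p = 0.00139) and Psmb9 (2.18 ± 0.50, adjusted p = 0.00182). B2m was at 586, 469 and 1439 CPM (1.38 ± 0.35, adjusted p = 0.00407) and H2-D1 at 936, 958 and 2022 CPM (0.93 ± 0.24, adjusted p = 0.00442), with every mouse above the controls. Without mouse 8, 4 genes rose (10.4% of all genes), namely Nlrc5 (2.84), Tap1 (1.65), Psmb8 (1.47) and Psmb9 (1.31). H2-K1 was the gene not called, at 938, 809.7 and 1906 CPM, so that mice 5 and 6 were below all WT controls (0.21 ± 0.24, adjusted p = 0.538). In DSS 0.845 to 1.00 H2-K1 counts came with each H2-D1 count, below the 1.51 to 1.57 of WT control.

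In DNBS the 3 rises rested on mouse 16. Nlrc5 was at 5.67, 4.96 and 49.6 CPM in mice 11, 14 and 16 (2.52 ± 0.74, adjusted p = 0.0423), Tap1 at 44.9, 41.1 and 306 CPM (2.22 ± 0.62, adjusted p = 0.0343) and Psmb9 at 36.8, 33.1 and 194 CPM (1.73 ± 0.49, adjusted p = 0.0385). All 3 mice were above the WT controls for these genes. Without mouse 16 none of the 10 was called (2.11% of all genes higher), with Nlrc5 at 0.63, Tap1 at 0.63 and Psmb9 at 0.41. With all mice, edgeR and DESeq2 on the 2 groups alone called none either, where DESeq2 gave an adjusted p for 9 of the 10 (3.35% and 11.5% of all genes). At an unadjusted p under 0.05 there were 0 genes by edgeR without mouse 16, and 5 by edgeR and 4 by DESeq2 on the 2 groups. The median over the WT control mean was 1.04-fold, 1.12-fold and 3.04-fold in the 3 mice. Beside it, Ifng was at 0.119, 0 and 3.16 CPM and Ptprc at 51.2, 41.9 and 84.0 CPM.

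**Figure D5:**
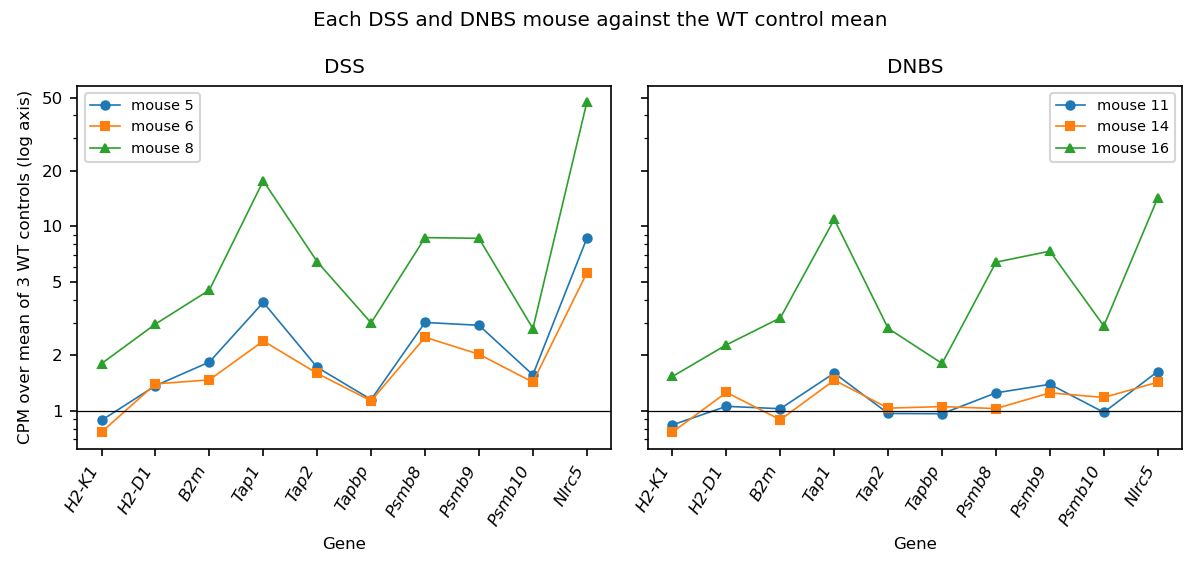
CPM of each of the 10 genes in each DSS and each DNBS mouse over the mean of the 3 WT controls. The median of the 10 genes was 5.48-fold in DSS mouse 8 and 3.04-fold in DNBS mouse 16, and between 1.04-fold and 1.78-fold in the other 4 mice.

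An F test of equal fold changes asked whether the 6 models differed in a gene's fold change. It passed for 8 of the 10 genes, where 60.5% of all genes passed. The F statistic was largest for H2-K1 (F = 76.5, adjusted p = 2.89e-11) and H2-D1 (F = 17.8, adjusted p = 5.73e-06), whose TCT contrast also holds the difference in H2 pattern. B2m (F = 7.60, adjusted p = 0.00087) and Psmb10 (F = 6.33, adjusted p = 0.00225), on other chromosomes, passed as well. A difference of background between TCT and Rag1 control may enter these too, which was not tested. Nlrc5 (F = 2.52, adjusted p = 0.0845) and Tap1 (F = 2.21, adjusted p = 0.12) did not, which does not show that their rises were equal.

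Models were also compared directly. IL10 mice had higher levels than DSS mice for 7 of the 10 genes (49.8% of all genes differed) and than DNBS mice for all 10 (33.9%). Not called against DSS were Nlrc5 (0.02 ± 0.59, adjusted p = 0.985), Tap1 (1.02 ± 0.56, adjusted p = 0.132) and Tap2 (0.43 ± 0.36, adjusted p = 0.345). Without DSS mouse 8 all 10 were higher in IL10 (43.6% of all genes). Between DSS and DNBS only Nlrc5 was called (1.83 ± 0.66, adjusted p = 0.0464, 22.6% of all genes), with overlapping mice, and the number called ran from 0 to 8 as single mice were left out. Between TCT and aCD40, H2-K1 (3.68 ± 0.27, adjusted p = 2.39e-10) and H2-D1 (1.11 ± 0.24, adjusted p = 0.00174) were higher in TCT (18.4% of all genes), in libraries of unlike H2-Ea-ps pattern. The other 8 had log2 differences between -0.05 and 0.84.

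Of the untreated groups, Rag1 control and Rag2 control gave no call among the 10 in the fit over all mice (0.124% of all genes), where the smallest unadjusted p was 0.166. With the spread taken from these 2 groups alone (2.36% of all genes called by edgeR and 7.35% by DESeq2), Tap1 was higher in Rag1 control by edgeR (0.61, adjusted p = 0.0372) and by DESeq2 (0.62, adjusted p = 0.0026). WT control and Rag2 control differed for H2-K1 (8.11% of all genes). With those 2 groups alone, 7 genes were called by either tool (of all genes, 19.9% by edgeR and 18.3% by DESeq2), H2-K1, H2-D1 and Nlrc5 higher in WT control and Psmb8, Psmb9, Psmb10 and Tap2 lower. Psmb8 was at 19.7, 16.8 and 22.7 CPM in WT control and 33.6, 36.8 and 28.2 CPM in Rag2 control, without overlap (-0.74 ± 0.49, adjusted p = 0.441 in the fit over all mice).

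The genes that load peptides beside these 10 were higher in most models. Of Calr, Canx, Pdia3, Erap1 and Tapbpl, 5 of 5 rose in TRUC, IL10 and aCD40, 4 in TCT, 2 in DSS and 0 in DNBS. Over all genes, 22.4% were higher in TRUC, 27.2% in IL10, 10.9% in aCD40, 16.1% in TCT, 17.7% in DSS and 3.95% in DNBS. These shares stand beside the counts of the lists below too. Tapbpl, a relative of tapasin, had log2 fold changes of 1.20 ± 0.32 in TRUC, 1.74 ± 0.33 in IL10, 1.98 ± 0.34 in TCT and 1.96 ± 0.34 in aCD40. Calr, which encodes the chaperone calreticulin, had 1.25 ± 0.15, 0.99 ± 0.15, 0.46 ± 0.16 and 0.91 ± 0.16. The median of the 5 was 0.95 in TRUC and 0.96 in IL10. Without DSS mouse 8 none of the 5 rose in DSS (10.4% of all genes higher).

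The proteasome activator and assembly genes listed were Psme1, Psme2, Psme3 and Pomp. Of these, 4 of 4 rose in TRUC, DSS and IL10, 3 in TCT and aCD40 and 0 in DNBS. Without mouse 8, 1 rose in DSS (10.4% of all genes higher). Psme1 and Psme2, the subunits of the activator PA28, rose by 1.95 ± 0.29 and 2.03 ± 0.29 in IL10 and by 0.98 ± 0.28 and 1.08 ± 0.28 in TRUC. The constitutive catalytic subunits Psmb5, Psmb6 and Psmb7 all rose in TRUC, IL10 and TCT, 1 of the 3 rose in aCD40 (Psmb7) and none in DSS or DNBS. In IL10 their log2 fold changes were 0.81 ± 0.14, 0.92 ± 0.14 and 0.98 ± 0.16. Of the 11 other subunits of the proteasome core, 11 rose in TRUC and IL10, 8 in TCT, 7 in aCD40, 1 in DSS and 0 in DNBS. Their median was 0.80 in TRUC and 1.05 in IL10, beside 2.38 and 3.73 for Psmb8.

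Of 15 regulators, 9 rose and 2 fell in TRUC, 9 and 3 in DSS, 2 and 1 in DNBS, 10 and 2 in IL10, 7 and 1 in TCT, and 8 and 1 in aCD40. Over all genes, 22.4% were higher and 23.4% lower in TRUC, 17.7% and 16.3% in DSS, and 3.95% and 2.21% in DNBS. The shares were 27.2% and 26.1% in IL10, 16.1% and 14% in TCT, and 10.9% and 10.7% in aCD40. Without DSS mouse 8, 3 rose and 3 fell in DSS (10.4% of all genes higher). Without DNBS mouse 16 none changed in DNBS (2.11% of all genes higher). Irf1, a factor that binds the interferon response element, rose by 1.19 ± 0.38 in TRUC, 1.92 ± 0.39 in IL10, 1.47 ± 0.40 in TCT and 1.35 ± 0.40 in aCD40.

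Among the other regulators, Ciita, the transactivator of class II genes, rose by 3.13 ± 0.47 in TRUC, 3.26 ± 0.45 in IL10, 4.45 ± 0.50 in TCT and 3.24 ± 0.49 in aCD40. Socs1, an inhibitor of interferon signalling, rose in all 6 models, by between 3.44 ± 0.91 in DNBS and 5.00 ± 0.91 in TRUC. Rfxank, a subunit of the RFX complex that binds class I and class II promoters, fell in all 6, by between 0.45 ± 0.13 in aCD40 and 1.08 ± 0.13 in DSS on the log2 scale. Its partner Rfx5 was called in none, and Rfxap rose in IL10 (0.27 ± 0.10). Without DNBS mouse 16 neither Socs1 nor Rfxank was called in DNBS. Irf2 fell in TRUC (1.14 ± 0.17), DSS (0.85 ± 0.18) and IL10 (0.51 ± 0.17).

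Ifng was at or near 0 in untreated mice, with at most 0.0885 CPM in the 9 controls. It was at 0.896 to 3.11 CPM in TRUC, 2.81 to 7.01 CPM in IL10, 3.93 to 6.95 CPM in TCT and 0.359 to 1.63 CPM in aCD40. All mice of these 4 models were above all controls. Of the 5 other interferon genes listed (Ifnb1, Ifnl2, Ifnl3, Ifne and Ifnk), none passed the filter on low counts.

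Of 17 other class I genes tested, 5 rose and 3 fell in TRUC, 9 and 2 in DSS, 0 and 0 in DNBS, 13 and 1 in IL10, 9 and 1 in TCT, and 4 and 3 in aCD40. In TRUC, where 22.4% of all genes were higher and 23.4% lower, the counts were near these shares. Of all genes, 17.7% were higher and 16.3% lower in DSS, and 27.2% and 26.1% in IL10. The shares were 16.1% and 14% in TCT and 10.9% and 10.7% in aCD40. Without DSS mouse 8, 2 rose and 1 fell in DSS (10.4% of all genes higher). H2-Q7 was at 13.8, 13.99 and 19.6 CPM in WT control and 392, 340.2, 355 and 245 CPM in IL10 (4.40 ± 0.64, adjusted p = 8.33e-06), and at most 4.04 CPM in the 13 libraries with H2-Ea-ps. H2-Q4 was ordered otherwise in untreated mice, at 31.2, 31.2 and 43.2 CPM in WT control and 142, 146 and 93.0 CPM in Rag2 control. Of the exon windows of H2-Q7 26.4% and of those of H2-Q4 21.8% occur in other genes, so that their reads are uncertain. Mr1, which presents microbial metabolites, fell in TRUC (0.45 ± 0.17), IL10 (0.83 ± 0.17) and aCD40 (0.85 ± 0.19) on the log2 scale.

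Summed markers of other cells differed between models and controls, some higher and some lower. The 3 endothelial markers summed to 117 to 122 CPM in WT control, 184 to 253 CPM in DSS, 132 to 266 CPM in DNBS and 48.1 to 105 CPM in IL10. Their sum was 92.9 to 116 CPM in Rag1 control, 99.6 to 123 CPM in TCT and 63.3 to 83.5 CPM in aCD40. In Rag2 control it was 74.7 to 97.9 CPM and in TRUC 68.7 to 90.8 CPM. The 4 leukocyte markers summed to 35.1 to 60.9 CPM in Rag2 control and 146 to 226 CPM in TRUC, to 39.7 to 49.1 CPM in Rag1 control, 74.8 to 126 CPM in aCD40 and 391 to 589 CPM in TCT, and to 309 to 594 CPM in IL10. The 6 T-cell markers summed to 10.2 to 17.4 CPM in WT control and 70.1 to 119.5 CPM in IL10. They summed to 3.49 to 4.86 CPM in Rag1 control, 88.5 to 158 CPM in TCT and 4.16 to 6.17 CPM in aCD40. In Rag2 control their sum was 2.30 to 6.04 CPM and in TRUC 7.08 to 9.16 CPM. None of the 6 was at 0 in all mice of TRUC or aCD40. The sum of 4 neutrophil markers was at most 2.11 CPM in the untreated groups. It was 748 to 1231 CPM in TRUC, 175 to 1640.2 CPM in DSS, 19.3 to 97.6 CPM in DNBS, 129 to 334 CPM in IL10, 104 to 248 CPM in TCT and 32.3 to 188 CPM in aCD40, and thus higher in every model. Of these markers, 3 of 4 rose in aCD40 and 4 of 4 in the other models. Over all genes, 22.4% were higher in TRUC, 27.2% in IL10, 10.9% in aCD40, 16.1% in TCT, 17.7% in DSS and 3.95% in DNBS. The sum of the 4 macrophage markers was above the controls in every model too. It was 260.4 to 293 CPM in Rag1 control, 1131 to 2040.2 CPM in TCT and 424 to 691 CPM in aCD40. In Rag2 control it was 226 to 337 CPM and in TRUC 539 to 630.1 CPM. It was 315 to 370.0 CPM in WT control, 811 to 1656 CPM in DSS, 452 to 533 CPM in DNBS and 693 to 1112 CPM in IL10. Most of this sum was Lyz2, with 188247 counts over all mice, against 8856 for Cd68, 11560 for Adgre1 and 28452 for Csf1r. Of the 4 macrophage genes, all rose in TRUC, DSS and TCT, 1 in IL10 and aCD40 and 0 in DNBS. The 1 of 4 in IL10 was near the share of all genes. The 6 epithelial markers summed to 8327 to 9976 CPM in WT control, 13244 to 19022 CPM in IL10, 9098 to 12098 CPM in DNBS and 6569.5 to 8057 CPM in DSS, which was below all WT controls. They summed to 10487 to 11303 CPM in Rag2 control, 13371 to 14543 CPM in TRUC, 9369 to 10179 CPM in Rag1 control, 11419.9 to 12971 CPM in TCT and 11834 to 13397 CPM in aCD40. Of the 6, 5 rose in IL10, 3 in TRUC, 2 in aCD40, 1 in TCT and 0 in DNBS, and in DSS 1 rose and 2 fell (16.3% of all genes lower). The 1 of 6 that rose in TCT and in DSS was near the share of all genes. The 4 smooth muscle markers were lower in IL10, at 2045 to 3985 CPM, than in WT control, at 5032 to 6393 CPM. They were lower in TRUC, at 2280 to 3402 CPM, than in Rag2 control, at 4526 to 5143 CPM. DSS (3466 to 9544 CPM) and DNBS (2876 to 5362 CPM) overlapped WT control. TCT (2913 to 3885 CPM) and aCD40 (2151 to 5605 CPM) overlapped Rag1 control (3274 to 3903 CPM). The part of any of these cells in the rises was not tested.

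Over all 29 mice, the median correlation of a gene's log2 CPM with the other 9 (Pearson's r) was 0.539 for H2-K1 and between 0.846 and 0.956 for the others. H2-K1 thus followed the others less closely. Within the 16 mice without H2-Ea-ps, it was between 0.909 for H2-K1 and 0.973 for Tap1, and within the 13 with it between 0.793 for Tapbp and 0.985 for H2-K1. These mice share groups and conditions, so the values are a description. Among the 5 genes whose log2 CPM was most like the mean of the 10 over 29 mice were H2-DMa, which helps to load class II molecules (r = 0.969), Gzma, a granzyme of cytotoxic lymphocytes (0.968), Gmfg (0.966) and Ifi47, an interferon-inducible GTPase (0.964).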

How the data were processed

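Colon RNA of 29 mice was measured by poly(A) RNA-seq with a kit that does not keep the strand. The authors deposited raw counts, whole numbers of reads per gene and mouse without normalization. The submitters' processing notes name Trimmomatic, HISAT2, HTSeq and GRCm38. Versions are not given in the sources used here. The table also lists 92 spike-in controls, all at 0, which were dropped. Of its 54532 genes, 20470 were at 0 throughout. Total counts were between 10725564 and 14977094 per mouse, and no 2 of the 33 pairs within a group agreed within sampling noise (lowest chi-square for each degree of freedom, 3.65). Symbols and positions were taken from GENCODE M21.

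Counts were scaled by TMM and tested with edgeR 4.0.16 in R 4.3.3 (quasi-likelihood, all 29 mice in 9 groups, no covariate), for the 18616 genes whose mean count reached 3. P values were adjusted over all genes tested (Benjamini-Hochberg, threshold 0.05), and SE is the size of the log2 fold change over the root of F. Ratios of 2 genes within a library were compared by exact permutation over mice (scipy 1.17.1). The scripts were tested on simulated counts. The 10 genes, the lists and the tests were chosen with earlier results of these data known. The genes named are the 10, genes of the lists, and the 5 whose pattern over the mice was most like the mean of the 10. A gene that the rule names is not reported here. Alternatives were RLE and upper quartile scaling, no filter, filterByExpr, DESeq2 1.42.0 or edgeR on the 2 groups alone, a replicate block, other controls, and leaving out each mouse. List counts without DSS mouse 8 or DNBS mouse 16, and ratios of TCT against WT control, were added after seeing the data.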

Additional observations from a re-analysis of the deposited data

Results flagged for a closer look

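By the F test of equal fold changes, adjusted over all genes, the 6 models differed in the fold changes of 8 of the 10 genes. Of all genes, 60.5% passed this test. Leaving out single mice, between 7 and 10 of the 10 passed. The adjusted p was 2.89e-11 for H2-K1, 5.73e-06 for H2-D1, 0.00087 for B2m, 0.00225 for Psmb10, 0.00454 for Psmb8, 0.00765 for Tapbp, 0.00818 for Psmb9 and 0.044 for Tap2. H2-K1 ranged from a log2 fold change of 0.07 ± 0.24 in DNBS to 5.03 ± 0.29 in TCT, where the libraries also differed in H2-Ea-ps. B2m ranged from 0.77 ± 0.35 in DNBS to 2.62 ± 0.36 in IL10. No mouse lay far from the others by Dixon's criterion in the 20 tests made, of 10 genes in the 2 groups of 4 mice.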

How the results depend on the processing

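The number of the 10 genes called in TRUC, IL10, TCT and aCD40 stayed within 1.5 times the reported count under every alternative run. With edgeR or DESeq2 on the 2 groups alone, 0 genes were called in DNBS, 7 between WT control and Rag2 control, 1 between Rag1 control and Rag2 control and 0 between DSS and DNBS. Upper quartile scaling, no filter and filterByExpr each called 2 between DSS and DNBS. With edgeR on the 2 groups alone 6 were called between IL10 and DNBS, and with DESeq2 4 between TCT and aCD40. The share of all genes called also moved with the setting, as from 8.11% to 19.9% by edgeR between WT control and Rag2 control. These counts stand without that share and do not show a change particular to the 10 genes. The causes were not tested.

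Leaving out single mice, the count ran from 4 to 9 in DSS (4 without mouse 8). It ran from 0 to 6 in DNBS (6 without mouse 11 and 0 without mouse 16 or any 1 WT control). It ran from 0 to 8 between DSS and DNBS, and from 4 to 10 between IL10 and DSS (4 without DSS mouse 6). Of all genes, 17.7% were higher in DSS and 10.4% without mouse 8, and 3.95% in DNBS and 2.11% without mouse 16. The other counts stand without that share, and none of them shows a change particular to the 10 genes. For DNBS the log2 ratio of Psmb10 to Psmb7 ran from -0.12 to 0.27, with the lowest value without mouse 16. The log2 difference of Ifng ran from -1.77 without DSS mouse 8 to 7.69 between DSS and DNBS, and from -2.60 to 3.71 without DSS mouse 8 between IL10 and DSS.

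IL10 and WT control, and TRUC and Rag2 control, share replicate numbers, which are not stated to pair mice. Same-numbered mice had correlations between -0.05 and 0.06. With the replicate block 10 of the 10 genes were called in IL10 and 9 in TRUC, as without it. Nlrc5, at 1.07 CPM in the lowest control, had the least depth of the 10 genes.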

Other observations

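H2-T3, chosen after its values were seen, which encodes the thymus leukemia antigen of intestinal epithelium, was at 1.18, 1.04, 10.0 and 173 CPM in the 4 IL10 mice and at most 0.381 CPM in WT control. Mouse 4 was far above the others. The same mouse had the highest H2-Q2 of the group (152, 185, 180.4 and 492 CPM).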
